A study of Mus musculus with 10 samples.

Results

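The genes described here are the nuclear genes for the mitochondrial respiratory chain and ATP synthase, read in cultured mouse hepatocytes. They were taken from the count table as protein-coding genes named Nduf (complex I and its assembly factors), Sdha to Sdhd and Sdhaf (complex II), Uqcr and Cyc1 (complex III), Cycs (cytochrome c), Cox4 to Cox8 (complex IV) and Atp5 (complex V). The rule took 103 of the 56748 genes in the table, under 102 symbols, because a pair of entries is named Atp5o and 1 of them has no counts. Ndufa4 and Ndufa4l2 carry complex I names and were placed in complex IV, where the Ndufa4 protein is now assigned.

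All 10 libraries were poly-A RNA-seq of primary hepatocytes from wild-type mice. The cells were kept overnight in medium conditioned by adipocytes that had themselves been starved overnight. Those adipocytes had been grown from stromal vascular cells of the inguinal fat pads of male mice kept on an obesogenic diet for 6 months, and were differentiated with IBMX, insulin, dexamethasone, indomethacin and rosiglitazone. The fat donors were Mttpf/f mice in the group called Mttp_flox_CM and A-Mttp–/– mice, which lack Mttp in adipose tissue, in the group called Mttp_KO_CM, with 5 libraries in each and 3 donor mice given in the labels. Mttp encodes the microsomal triglyceride transfer protein, and the hepatocytes themselves carried no deletion. The promoter that drives the deletion is not given in the sources used here. Nothing in the labels ties the libraries of a group to separate cultures or animals, so p-values reflect the spread between libraries, which may be technical. The series title names hepatic steatosis and PPARα, and the comparison asks how hepatocyte RNA differs between the media.

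The respiratory chain passes electrons from NADH (complex I) and succinate (complex II) through coenzyme Q, complex III, cytochrome c and complex IV to oxygen, and pumps protons as it does so. ATP synthase, complex V, lets the protons back through a rotating c ring and makes ATP. Complexes I, III, IV and V mix nuclear with mitochondrially encoded subunits, while complex II is wholly nuclear. Hepatocytes rely on this chain to oxidise the NADH and FADH2 that fatty acid breakdown yields.

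Depth was similar, at 14199798 to 15950530 summed counts for Mttp_flox_CM libraries and 14283517 to 17178131 for Mttp_KO_CM libraries. In each group 1 library carries a number in the table that no label gives, and it is called the unnumbered library. The hepatocyte marker Alb stood at 29137 and 25098 mean CPM (counts scaled to a common library size with TMM factors). Of 8 hepatocyte markers tested, 7 fell and 0 rose (median log2 change -0.39), and their summed level was 46476 to 48300 CPM in Mttp_flox_CM against 39796 to 40858 in Mttp_KO_CM. Liver endothelial markers fell in 6 of 6 genes (summed level 1199 to 1264 against 632 to 670.5 CPM), stellate cell and fibroblast markers in 5 of 6 (66.8 to 74.0 against 35.2 to 40.0 CPM) and macrophage markers in 6 of 6 (421 to 455 against 245 to 268 CPM). By the test described below, 18.1% of all genes tested were called lower. In bulk RNA, fewer cells of a type and less RNA per cell cannot be told apart. The part of these shifts in the changes below was not tested.

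In cells given knockout medium, 30 of the 94 respiratory genes that passed the count filter rose and 0 fell (edgeR quasi-likelihood test, Benjamini-Hochberg adjusted p under 0.05 over 14183 genes). That is 31.9% of them, where 18.2% of all genes tested were called higher and 18.1% lower. The share called higher was 42.9% for complex I core subunits, 23.3% for its other subunits and 25.0% for its assembly factors. It was 25.0% for complex II, 0.0% for its assembly factors, 55.6% for complex III, 21.4% for complex IV and 47.1% for complex V. At an unadjusted p under 0.05, 37 members were higher and 0 lower, and DESeq2 called 27 higher and 0 lower. The log2 change was negative in 12 of the 94, all uncalled. The median log2 change, Mttp_KO_CM over Mttp_flox_CM, was 0.09 over the 94 genes and 0.00 over all genes tested. In 20 members every Mttp_KO_CM library lay above every Mttp_flox_CM library, against 13.0% of all genes, and all 20 were among the 30 called. None lay wholly below, where 12.7% of all genes did.

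The rises were small. Among the 30, 26 were under 1.2-fold and 1 was above 1.5-fold, Ndufa4l2, and the lowest was Atp5b at 1.06-fold. The called genes were read at a median of 81.6 CPM and the 64 uncalled ones at 40.4 CPM, with median standard errors (SE) of 0.039 and 0.054 on the log2 scale. For 49 of the 64 uncalled genes, and for 66 of all members tested, both 95% limits of the change lay within 0.25 of 0. The median log2 change of the called genes was 0.16. This margin therefore does not separate uncalled from called genes or exclude rises of the called size. With a minimum count of 50 in place of 10 in the filter, 28 of 92 members rose (30.4%) beside 21.0% of all genes. Scaling libraries by their total count alone moves the median of all genes to -0.04. With that scaling 20 members rose (21.3%) and 0 fell, beside 14.0% and 22.7% of all genes. Without both unnumbered libraries 20 of 95 members rose (21.1%) and 0 fell, beside 15.8% and 16.1% of all genes.

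**Figure D1:**
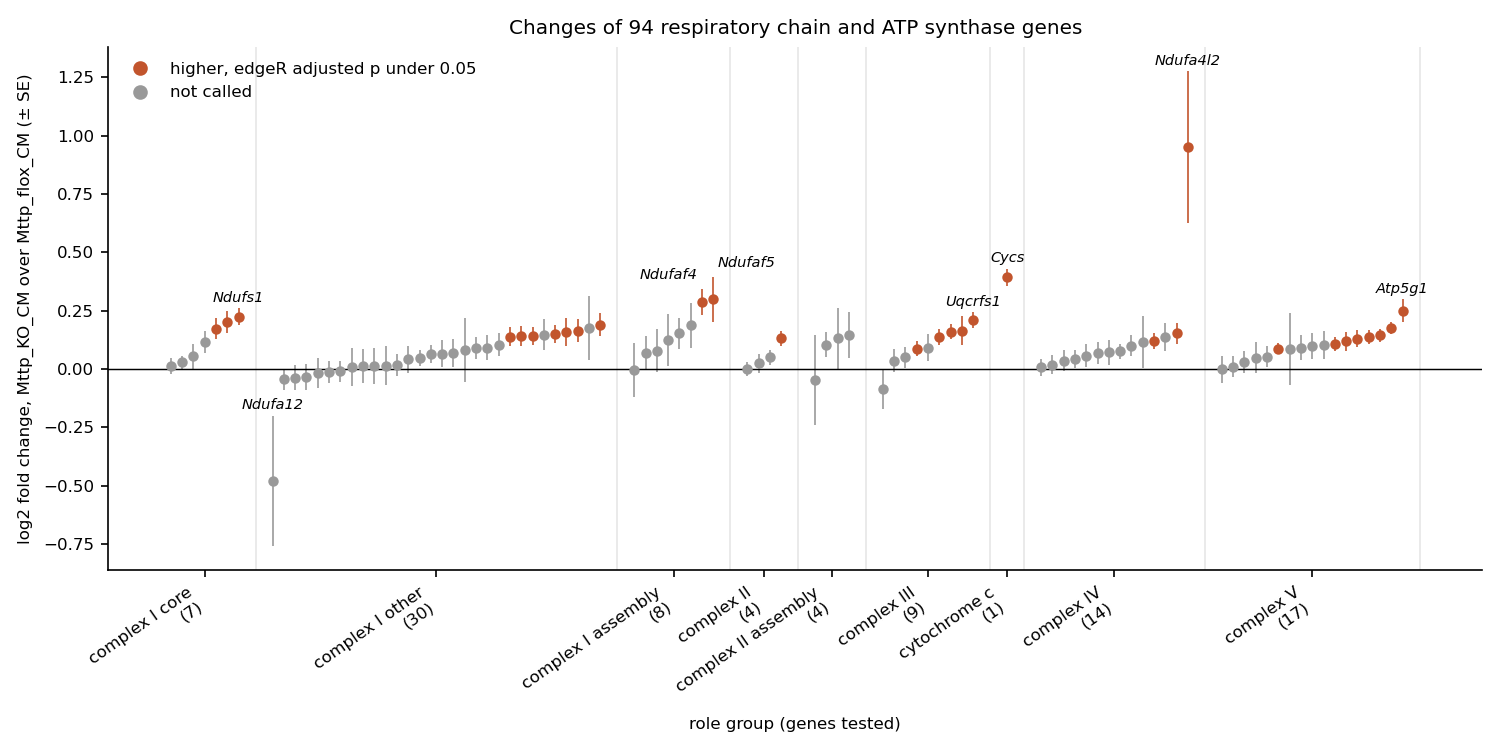
Log2 fold change (y axis, Mttp_KO_CM over Mttp_flox_CM, bars ± SE) of the 94 genes tested, ordered by size within 9 role groups (x axis); filled orange points passed edgeR's adjusted p of 0.05 and grey points did not. The 30 called genes all lie above 0, most of them under 0.25, with Ndufa4l2 (0.95) and Cycs (0.39) at the top and the uncalled Ndufa12 (-0.48) at the bottom.

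Cycs encodes cytochrome c, the small heme protein that carries electrons from complex III to complex IV. It had the smallest p of all members. The gene spans bases 50539543 to 50543518 of chromosome 6, minus strand (GRCm39, as all gene positions here). In the order replicate 1 to 4 and unnumbered library, used for every such list, it stood at 132, 120.4, 115, 119 and 121 CPM in Mttp_flox_CM and at 149.5, 164, 159, 165 and 160.3 CPM in Mttp_KO_CM. The groups do not overlap, and replicate 1 is the highest of the first group and the lowest of the second. The log2 change was 0.39 (SE 0.037, edgeR adjusted p = 5.3e-09), a 1.31-fold rise.

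The 250 bases before the RefSeq start of Cycs, and those of the complex I assembly factor Ndufaf4, which had the smallest p in its group, are shown because both hold the core of the binding site of NRF1, a factor known to act on respiratory genes. Ndufa12, the member that varied most between libraries, is shown beside them and holds no match. Capitals mark matches to GCATGCGC on either strand. The sequences are from RefSeq's promoter table (GRCm38.p6, a different build from the gene positions), on the strand of the gene. Cycs is chr6:50566570-50566819 on the minus strand, Ndufaf4 chr4:24897833-24898082 and Ndufa12 chr10:94198785-94199034, both on the plus strand.
Cycs: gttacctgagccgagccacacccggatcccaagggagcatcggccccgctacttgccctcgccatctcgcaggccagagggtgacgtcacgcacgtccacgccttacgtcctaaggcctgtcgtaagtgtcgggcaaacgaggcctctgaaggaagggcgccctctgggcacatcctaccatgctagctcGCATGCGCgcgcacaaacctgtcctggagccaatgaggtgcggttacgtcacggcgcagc
Ndufaf4: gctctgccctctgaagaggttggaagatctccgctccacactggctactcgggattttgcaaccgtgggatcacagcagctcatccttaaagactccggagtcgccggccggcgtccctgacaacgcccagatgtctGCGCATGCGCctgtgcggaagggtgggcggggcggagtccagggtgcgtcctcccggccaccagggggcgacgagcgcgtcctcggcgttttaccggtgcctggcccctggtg
Ndufa12: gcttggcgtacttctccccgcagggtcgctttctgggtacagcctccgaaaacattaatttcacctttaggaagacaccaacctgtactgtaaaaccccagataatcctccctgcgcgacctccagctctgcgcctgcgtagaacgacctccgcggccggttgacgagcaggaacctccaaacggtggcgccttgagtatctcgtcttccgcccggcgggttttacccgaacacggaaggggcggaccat

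In Cycs the match lies 60 to 53 bases before the start. Ndufaf4 has a run of 10 bases, a pair of overlapping matches on opposite strands, 113 to 104 bases before the start, and a further match 2 to 9 bases after it.

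Promoters (250 bases before to 50 after the start) were available for 82 of the 102 member symbols. GCATGCGC on either strand was in 13 of the 82 (15.9%) and in 3.05% of 27025 genes in the promoter table. The 27025 were not limited to genes that passed the count filter, as most of the 82 members did, so the sets are unlike. GCATGCGC was in 6 of 25 called members (24.0%) and 7 of 53 uncalled ones (13.2%). The windows of the other 4 called members with a match are shown with 10 bases on each side, capitals again marking the match, to let the surroundings be compared. Atp5g2 is chr15:102671070-102671099 (minus strand), Ndufa8 chr2:36049329-36049356 (minus), Ndufaf5 chr2:140170652-140170681 (plus) and Uqcrc1 chr9:108936668-108936697 (plus).
Atp5g2: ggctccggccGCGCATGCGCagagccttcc
Ndufa8: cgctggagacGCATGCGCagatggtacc
Ndufaf5: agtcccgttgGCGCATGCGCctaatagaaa
Uqcrc1: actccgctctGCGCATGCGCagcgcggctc

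Atp5g2, Ndufaf5 and Uqcrc1 share the 10-base run seen in Ndufaf4. The core of ETS family sites, CCGGAAG on either strand, was in 22 of 82 members (26.8%) and 9.93% of all genes in the table, and in 3 of 25 called (12.0%) and 19 of 53 uncalled members (35.8%). GGTCANAGG, the middle of the direct repeat that PPARα binds with RXR, was in 3 of 82 members (3.66%) and 2.02% of all genes. These shares rest on few matches and were not tested, and among the 3 members Cox8b did not pass the count filter. Of the called members, Uqcrfs1 and Atp5pb held the match, each 34 to 42 bases after the start. In Uqcrfs1 (chr13:30545267-30545293, minus strand) it reads on the opposite strand to that in Atp5pb (chr3:105959214-105959240, minus strand). These are letter matches and not measured sites.
Uqcrfs1: aaaggtcgtcCCTGTGACCgacgaggt
Atp5pb: ctcgggtcggGGTCACAGGgacacgga

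Complex I takes electrons from NADH and is built on 7 nuclear core subunits that hold the flavin and the iron-sulfur clusters. Of these, 3 rose and 0 fell (median log2 change 0.12). Ndufs1, the largest cluster-bearing subunit (chromosome 1, 63182755 to 63215992, minus strand), stood at 81.9, 81.3, 83.4, 77.8 and 81.4 CPM in Mttp_flox_CM and at 98.3, 91.8, 93.3, 94.5 and 96.3 CPM in Mttp_KO_CM. The groups are well apart (log2 change 0.22, SE 0.035, edgeR adjusted p = 1.6e-05). Ndufs1 overlaps Eef1b2 on the opposite strand, which has 3.96 times its counts and itself rose (log2 0.18). The counts are treated as unstranded, so reads of the pair cannot be told apart in the shared stretch. Of the called members, 8 overlap a gene with at least 100 counts summed over libraries. In 2 of them, Ndufs1 and Ndufa4l2, that gene has more counts than the member. Atp5pb of complex V overlaps Wdr77 on the opposite strand, which has 0.147 times its counts and rose (log2 0.30).

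Ndufs3 and Ndufs7 sit in the module that hands electrons to coenzyme Q. Ndufs3 averaged 57.0 ± 3.32 (SD, n = 5) and 65.4 ± 3.81 CPM (log2 0.20, SE 0.047, edgeR adjusted p = 0.0016), with the lowest Mttp_KO_CM library at 61.5 and the highest Mttp_flox_CM library at 61.6. Ndufs7 averaged 49.2 ± 2.62 and 55.4 ± 2.73 CPM (log2 0.17, edgeR adjusted p = 0.0044), with replicates touching but not crossing at 52.5 CPM. Ndufv2 of the NADH-oxidising module did not pass (log2 0.12, adjusted p = 0.052). Ndufv1, which holds the flavin, was at 99.2 ± 3.54 and 100.1 ± 2.77 CPM and was not called.

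The other complex I subunits surround this core. Of 31, 30 passed the filter, 7 rose, 0 fell and the median log2 change was 0.06, with 7 negative values. Ndufa8, a subunit of the intermembrane face, averaged 67.4 ± 2.28 and 74.8 ± 1.96 CPM (log2 0.15, SE 0.038, edgeR adjusted p = 0.0032). Ndufb10, in the membrane arm, went from 39.4 ± 2.96 to 45.0 ± 1.49 CPM (log2 0.19) and Ndufa7 from 58.0 ± 1.44 to 64.0 ± 2.41 CPM (log2 0.14). In all 3 genes the groups do not overlap. Ndufab1, the mitochondrial acyl carrier protein that also serves lipoate and fatty acid synthesis, rose by 0.16 (SE 0.050, adjusted p = 0.012), as did Ndufb6 (log2 0.16, adjusted p = 0.040), Ndufc2 and Ndufb8 (log2 0.14 each). The call of Ndufb6 was lost in 8 of the 10 fits that leave out 1 library (adjusted p up to 0.165).

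Ndufa12, an accessory subunit next to the NADH-oxidising module (chromosome 10, 94034582 to 94057305, plus strand), behaved unlike the rest. It stood at 13.3, 11.0, 10.4, 30.1 and 35.5 CPM in Mttp_flox_CM and at 26.2, 10.3, 13.3, 11.3 and 10.6 CPM in Mttp_KO_CM. Replicate 4 and the unnumbered library of the first group and replicate 1 of the second stood apart from the other 7, which reached at most 13.3 CPM. The log2 change was -0.48 (SE 0.28, edgeR adjusted p = 0.198), and without Mttp_KO_CM replicate 1 the gene was called lower (log2 -0.81, adjusted p = 0.020). Without the unnumbered Mttp_flox_CM library the change was -0.18, and without both unnumbered libraries -0.09. Its coefficient of variation within groups averaged 53.0%, the highest of the 94 members, whose median was 5.70%. Among 9274 genes with a mean of at least 10 CPM, 8 varied as much, Ndufa12 included. Its neighbours did not follow it, with Nr2c1 between 19.5 and 26.9 CPM and Tmcc3 between 35.8 and 38.8 CPM in Mttp_flox_CM.

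Assembly factors of complex I are needed to build it and are no part of the finished enzyme. Of 8, 2 rose and 0 fell (median log2 0.14). Ndufaf4 stood at 31.7, 28.8, 28.6, 28.2 and 31.8 CPM in Mttp_flox_CM and at 33.4, 34.8, 40.2, 35.9 and 37.3 CPM in Mttp_KO_CM. No library of the first group reached the second (log2 0.29, SE 0.055, edgeR adjusted p = 2.0e-04). Ndufaf5, which modifies an arginine of Ndufs7, was read at 8.20 ± 0.730 and 10.1 ± 0.742 CPM (log2 0.30, SE 0.096, adjusted p = 0.016), and was not called without Mttp_flox_CM replicate 3 or without Mttp_KO_CM replicate 4 (adjusted p up to 0.059). Ndufaf1 (log2 0.15, adjusted p = 0.073) and Ndufaf2 (log2 0.19, adjusted p = 0.14) did not pass. Complex I assembly factors with other names, a list of 12 of which 11 were found, had 2 higher, Tmem126a (log2 0.19) and Acad9 (log2 0.15), and 0 lower. Over all genes tested, 18.2% were called higher.

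Complex II, succinate dehydrogenase, is also an enzyme of the citric acid cycle. Of its 4 subunits 1 rose. Sdhd, a membrane anchor (chromosome 9, 50507657 to 50515112, minus strand), stood at 120.2, 121, 114, 121 and 117 CPM in Mttp_flox_CM and at 133, 126, 132, 132 and 128 CPM in Mttp_KO_CM (log2 0.13, SE 0.032, edgeR adjusted p = 0.0018). The catalytic flavoprotein Sdha was at 283 ± 9.22 and 283 ± 8.37 CPM and was not called, the iron-sulfur subunit Sdhb was at 85.3 ± 4.46 and 86.8 ± 3.58 CPM, and the other anchor, Sdhc, had a log2 change of 0.05 (SE 0.032). None of the 4 Sdhaf assembly factors passed (median log2 0.12), and Sdhaf1 and Sdhaf3 were at 2.35 and 4.90 mean CPM in Mttp_flox_CM.

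Complex III passes electrons from coenzyme Q to cytochrome c. Of its 9 nuclear genes 5 rose and 0 fell (median log2 0.09). Uqcrfs1, the Rieske iron-sulfur protein whose head swings between the electron donor and acceptor (chromosome 13, 30724291 to 30729345, minus strand), stood at 103, 99.8, 98.7, 104 and 100.3 CPM in Mttp_flox_CM and at 120.2, 114, 117, 118 and 115 CPM in Mttp_KO_CM. The gap between the groups was wider than the spread within either (log2 0.21, SE 0.032, edgeR adjusted p = 1.2e-05). Cyc1, cytochrome c1, from which cytochrome c takes its electron, went from 141 ± 5.72 to 157 ± 3.99 CPM (log2 0.16, adjusted p = 4.1e-04). The core proteins Uqcrc1 and Uqcrc2 rose by 0.14 and 0.09, and the call of Uqcrc2 was lost without any 1 of Mttp_flox_CM replicates 1 and 3, Mttp_KO_CM replicate 3 and the unnumbered Mttp_KO_CM library (adjusted p up to 0.115). The third catalytic subunit, cytochrome b, is encoded in mitochondrial DNA as mt-Cytb and went from 2113 to 2501 mean CPM (log2 0.24, SE 0.024). The small subunit Uqcr10 rose by 0.16 (adjusted p = 0.042), a call lost in 5 of the 10 fits that leave out 1 library (adjusted p up to 0.155). Uqcrb had the lowest value of the complex (log2 -0.09, SE 0.083), with 53.8 and 52.0 CPM in Mttp_flox_CM replicates 1 and 4 and 38.3 to 40.9 in the other 3.

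Complex IV, cytochrome c oxidase, reduces oxygen, and its nuclear subunits often come in a general and a muscle, lung or testis form. Of 21 members 14 passed the filter, 3 rose and 0 fell (median log2 0.07). The 3 are 21.4% of those tested, near the 18.2% of all genes called higher. The general forms were the ones read in these cells. Cox6a1, Cox4i1, Cox6b1 and Cox8a were at 233, 162, 161 and 130.0 mean FPKM (the deposited level per gene length). The muscle, lung or testis forms had hardly any reads. In all 10 libraries together, counts were 8 for Cox6a2, 12 for Cox6b2, 1 for Cox8b, 96 for Cox4i2 and 63 for Cox7a1, the counterpart of Cox7a2. Cox7b2 and Cox8c had 0, which allows up to 0.0197 CPM over all libraries (3 counts, counting error only).

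None of the general forms Cox6a1, Cox4i1, Cox6b1 and Cox8a was called. Cox4i1 had a log2 change of 0.08 (SE 0.032, adjusted p = 0.070), with 4 of the Mttp_flox_CM libraries between 246 and 254 CPM and the unnumbered one at 228. Cox7a2 rose, averaging 71.1 ± 4.44 and 79.1 ± 3.15 CPM (log2 0.15, SE 0.044, edgeR adjusted p = 0.0079). Cox7a2l, which joins complexes III and IV in a supercomplex, rose from 109 ± 3.63 to 118 ± 4.86 CPM (log2 0.12, SE 0.036, adjusted p = 0.010), and its groups do not overlap. Without both unnumbered libraries neither was called, and 0 of the 3 complex IV calls remained. Cox5b-ps, listed as protein-coding, is named as a copy of Cox5b, so reads may have been split between them, and neither was called.

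Ndufa4l2, a relative of Ndufa4 known to be induced in low oxygen, made up the third call and the largest change of any member (chromosome 10, 127350836 to 127353023, plus strand). It stood at 2.37, 1.47, 1.55, 4.53 and 3.14 CPM in Mttp_flox_CM and at 1.84, 2.32, 7.04, 8.28 and 5.71 CPM in Mttp_KO_CM. The groups overlap, since 2 of the Mttp_KO_CM libraries lie among those of Mttp_flox_CM (log2 0.95, SE 0.33, edgeR adjusted p = 0.024). The call was kept under 9 of 21 alternatives, among which 1 fit is entered again under another name. It was lost without any 1 of Mttp_flox_CM replicates 2 and 3, Mttp_KO_CM replicates 3 and 4 and the unnumbered Mttp_KO_CM library (adjusted p up to 0.106). Under the stricter filter the call was absent because Ndufa4l2 was not tested. Ndufa4l2 overlaps Shmt2, a mitochondrial serine enzyme, on the opposite strand, which has 37.1 times its counts and rose by 0.17 (adjusted p = 3.7e-04). Ndufa4 itself was at 94.6 ± 6.56 and 96.9 ± 4.78 CPM and was not called.

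Complex V, ATP synthase, had 18 entries, of which 17 passed the filter, 8 rose and 0 fell (median log2 0.10). Of these 8, 7 encode the catalytic head with its central stalk or the c ring. Of the 5 subunits of the head and its central stalk (Atp5a1, Atp5b, Atp5c1, Atp5d, Atp5e) 4 rose, of the 3 c-ring genes 3 rose, of 4 peripheral stalk genes (Atp5o, Atp5pb, Atp5h, Atp5j) 1 rose, Atp5pb, and of 5 small membrane subunits (Atp5j2, Atp5k, Atp5l, Atp5md, Atp5mpl) 0 rose. These divisions were made after the values were seen and were not tested against each other. The median log2 changes were 0.13, 0.14, 0.07 and 0.05, and the median SE grew from 0.029 in the head to 0.061 in the small membrane subunits, which were read at a median of 47.6 CPM against 178 for the head.

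Atp5a1, the alpha subunit of the head, stood at 744, 750.1, 727, 745 and 749.7 CPM in Mttp_flox_CM and at 846, 815, 866, 816 and 852 CPM in Mttp_KO_CM. Every library of the second group lay above the first (log2 0.18, SE 0.024, edgeR adjusted p = 3.0e-06). The beta subunit Atp5b, which carries the active sites, rose less, from 978 ± 19.2 to 1039 ± 8.96 CPM (log2 0.09, SE 0.023, adjusted p = 0.0038), again with no overlap. The central stalk genes Atp5c1 and Atp5d rose by 0.14 and 0.13. Per length, Atp5a1 and Atp5b (251 and 237 mean FPKM) and Cox6a1 (233) were the top 3 members.

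The c-ring protein is encoded by 3 genes that differ in the import signal and give the same mature protein. Atp5g1, known as the regulated copy, stood at 59.9, 60.0, 51.5, 60.0 and 59.6 CPM in Mttp_flox_CM and at 68.5, 65.4, 66.4, 76.3 and 69.0 CPM in Mttp_KO_CM (log2 0.25, SE 0.049, edgeR adjusted p = 2.7e-04). Replicate 3 was low in the first group and replicate 4 high in the second. Atp5g3, the most highly expressed copy at 106 mean FPKM, rose by 0.14 (SE 0.030), and Atp5g2, at 56.8 FPKM, by 0.12 (SE 0.042, adjusted p = 0.032), a call lost in 6 of the 10 fits that leave out 1 library (adjusted p up to 0.119). The ratio of Atp5g1 to Atp5g2 counts was 0.559 to 0.682 in Mttp_flox_CM against 0.661 to 0.719 in Mttp_KO_CM, a difference of 0.13 in mean log2 ratio (two-sided exact permutation p = 0.056). For Atp5g1 over Atp5g3 it was 0.11 (exact permutation p = 0.095). With p adjusted over the 5 paralog pairs in which both genes were tested, of 13 listed, 0 passed and the lowest was 0.238, where 0.0079 is the smallest unadjusted p that 5 against 5 allows. The remaining pairs, Ndufa4 with Ndufa4l2, Cox7a2 with Cox7a2l and Atp5g2 with Atp5g3, had exact permutation p of 0.167, 0.437 and 0.571. The gene of the ATP synthase inhibitor, Atpif1, lies outside the naming rule and was at 14.6 ± 1.08 and 13.6 ± 0.838 CPM (log2 -0.10, SE 0.077, edgeR adjusted p = 0.32).

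**Figure D2:**
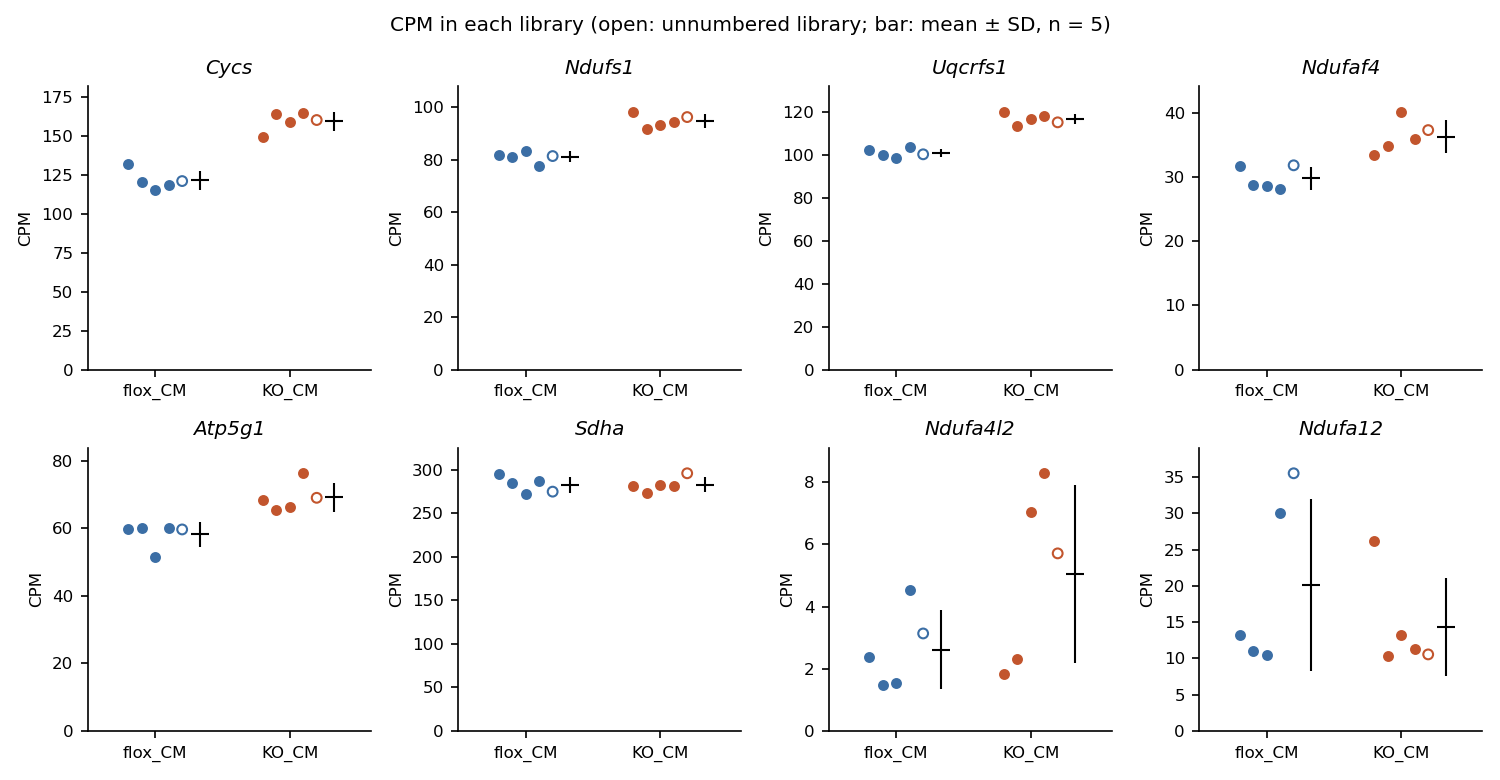
CPM (y axis, from 0) of 8 genes in each of the 10 libraries; blue points are Mttp_flox_CM, orange points Mttp_KO_CM, open points the unnumbered libraries, and the bar is the mean ± SD (n = 5). Cycs, Ndufs1, Uqcrfs1, Ndufaf4 and Atp5g1 separate the groups, Sdha averages 283 CPM in both, and Ndufa4l2 and Ndufa12 scatter within groups.

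Levels per length varied widely among the 94 genes, from 0.874 mean FPKM for Ndufb2 to 251 for Atp5a1, with a median of 33.3. Assembly factors were read far below the subunits they serve, with medians of 6.56 FPKM for complex I assembly against 30.3 for its subunits and 2.62 for complex II assembly against 54.6. FPKM here divides by the gene length in the deposited table, so genes with long listed lengths come out low.

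**Figure D3:**
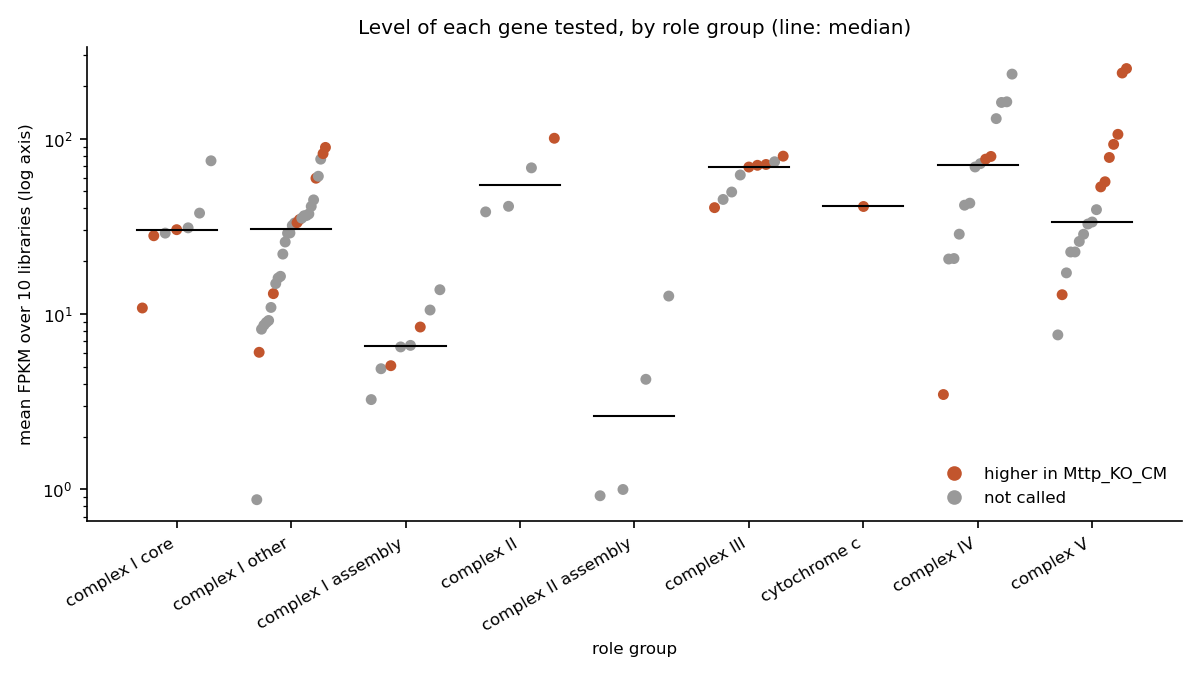
Mean FPKM over 10 libraries (y axis, log scale) of each gene tested, by role group (x axis); orange points were called higher in Mttp_KO_CM and the black line is the group's median. The medians run from 2.62 for complex II assembly factors to 70.5 for complex IV, and Atp5a1 (251) is the highest point.

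Averaged over the genes of a complex, the mean FPKM was 31.3 ± 1.25 (SD, n = 5) and 33.1 ± 0.688 for complex I, 60.6 ± 0.888 and 63.4 ± 1.17 for complex II, and 63.0 ± 1.71 and 68.4 ± 0.641 for complex V, with no overlap of the groups. For complex I the gap was small, with the highest Mttp_flox_CM library at 32.48 and the lowest Mttp_KO_CM library at 32.49. In complex II, Sdhd went from 95.8 to 105.1 mean FPKM and Sdha was at 68.1 in both groups. Sdhc went from 40.4 to 41.8 and Sdhb from 37.9 to 38.6. For complex III (60.1 ± 2.36 and 64.5 ± 1.97) and complex IV (79.5 ± 3.94 and 83.5 ± 2.24) the groups overlap. No test was made of these averages. The members also differed between libraries of 1 group. Their median log2 distance from the Mttp_flox_CM mean was 0.06, 0.01, -0.03, 0.03 and -0.06 in the libraries of that group and 0.07, 0.08, 0.07, 0.14 and 0.10 in Mttp_KO_CM. Mttp_flox_CM replicate 1 thus lay close to the lowest Mttp_KO_CM library, and the unnumbered Mttp_flox_CM library lay lowest.

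**Figure D4:**
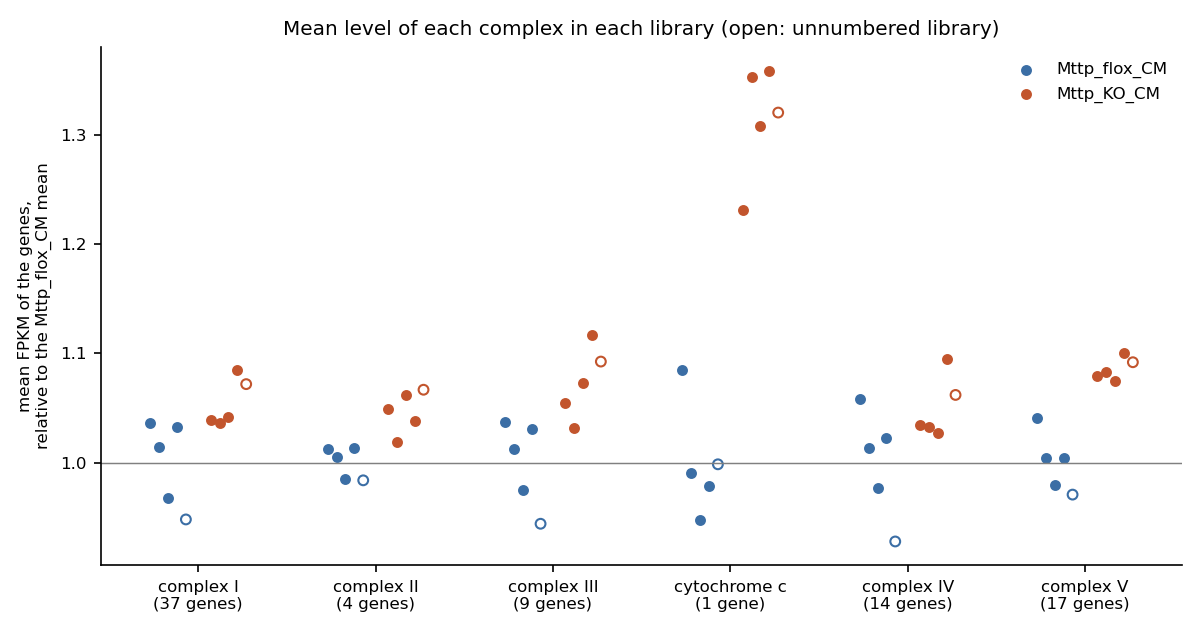
Mean FPKM of each complex's genes in each library, divided by the Mttp_flox_CM mean (y axis, which does not start at 0); blue is Mttp_flox_CM, orange Mttp_KO_CM, open points the unnumbered libraries. Complexes II and V and cytochrome c separate the groups, by ratios of 1.05, 1.09 and 1.31, while complexes III and IV overlap. Complex I (ratio 1.05) only just separates them, and in complex II 1 of 4 genes was called.

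Other genes of the pathway were counted from lists, to be read beside the 18.2% of all genes tested called higher and the 18.1% called lower. Of 12 mitochondrially encoded subunits tested 8 rose and 0 fell (median log2 0.18), while mt-Co1, the one with the most counts, did not pass (log2 0.03, SE 0.023). Of 27 assembly factors of complexes III to V outside the naming rule 7 rose and 0 fell (median log2 0.12). These included Coa5 (log2 0.21), Uqcc1, which helps make cytochrome b (log2 0.32), and Coa3 (log2 0.19). Of 21 genes for coenzyme Q synthesis and other electron donors 8 rose and 0 fell (median log2 0.12). The largest change was in Etfdh, which passes electrons from fatty acid oxidation to coenzyme Q. It went from 128 to 226 mean CPM (log2 0.82, SE 0.033). Etfb, of the same list, rose by 0.59, and both changes exceeded that of any called member but Ndufa4l2. Of 13 transcription regulators of respiratory genes 4 rose and 1 fell (median log2 -0.02), with Tfb2m, Esrra and Ppara up by 0.36, 0.33 and 0.33 and the coactivator Ppargc1a lower (log2 -0.39, SE 0.14). Nrf1 itself did not pass (log2 -0.04, SE 0.054).

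Of 4 adipocyte markers only Fabp4 passed the filter, with Lep at 0 counts and Adipoq and Plin1 below 0.5 mean CPM. Fabp4 rose from 98.3 to 107.6 CPM (log2 0.13). Of 4 muscle markers, whose tissue uses Cox6a2, Cox7a1 and Cox8b, none passed the filter and Ckm and Myh6 were at 0.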

How the data were processed

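Poly-A RNA-seq of 10 hepatocyte libraries was analysed. The authors deposited whole-number counts per gene and FPKM values. Per the submitters' processing notes, HISAT2 2.0.5, featureCounts 1.5.0-p3 and genome build GRCm39 were used; annotation release, strand setting and multi-mapping were not given in the sources used here. Deposited FPKM values served for levels per gene length and as an alternative.

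Counts were fitted in R 4.3.3 with edgeR 4.0.16 (filterByExpr with minimum count 10 and minimum total 15, TMM, glmQLFTest, prior count 0.125), which left 14183 genes and 99.8% of the counts. Limits of 95% use edgeR's total degrees of freedom. The alternatives used limma 3.58.1 and DESeq2 1.42.0. The fit was also run on simulated data, with changes larger than most of those called here, so recovery of smaller changes was not tested. All 10 columns were used; 2 carry a number that no label gives and were placed in a group by their letter. No libraries were duplicates (chi-square per degree of freedom between replicates 2.04 to 4.07).

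Genes named in the text are the 3 smallest p-values per role among those called, the highest and lowest by FPKM, paralog pairs, and up to 3 called genes per outside list. Any further name was picked with values in view. The members and lists were chosen with earlier results of these data known.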

Additional observations from a re-analysis of the deposited data

Results flagged for a closer look

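In groups of 5 libraries, a library was singled out where its gap to the nearest other exceeded Dixon's 95% critical value, which chance alone exceeds in about 1 of 20 groups. Of 110 groups 11 were singled out. Mttp_flox_CM replicate 3 was low for Atp5a1 (727 CPM, the others 744 to 750.1), Atp5g1 (51.5, the others 59.6 to 60.0) and Ndufb6 (34.0, the others 37.5 to 38.5), and high for Sdhb (93.1, the others 82.4 to 85.1). The unnumbered Mttp_flox_CM library was low for Cox4i1 (228, the others 246 to 254) and Uqcrc1 (151, the others 160.1 to 163). In Mttp_KO_CM, replicate 1 was high for Ndufa12 (26.2, the others 10.3 to 13.3), replicate 2 low for Cox7a2 (73.6, the others 79.4 to 81.1), replicate 3 low for Cox8a (74.5, the others 83.1 to 86.5), replicate 4 high for Ndufa4 (105, the others 93.6 to 96.0) and the unnumbered library high for Cox7a2l (127, the others 115 to 117).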

How the results depend on the processing

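Over 21 alternatives the number of members called higher ran from 20 to 32, and 16 of the 30 were called in every one: Atp5a1, Atp5c1, Atp5d, Atp5g1, Atp5g3, Cyc1, Cycs, Ndufa8, Ndufaf4, Ndufb10, Ndufs1, Ndufs3, Ndufs7, Sdhd, Uqcrc1 and Uqcrfs1. Least often called were Ndufb6 (4 of 21), Uqcr10 (6), Ndufa4l2 and Atp5g2 (9 each) and Uqcrc2 (11); these and Ndufaf5 were the calls that leaving out 1 library ended. The count was 27 with DESeq2, 28 with limma-voom, 26 with upper-quartile factors, 26 on log2 of FPKM plus 1 or plus 0.1, 30 with no filter and 24 to 32 leaving out 1 library. With library size alone, and without both unnumbered libraries, it was 20. The latter fit is entered again among the 21 as the fit to the same libraries without a replicate block. The share of higher calls among all called genes was 50.1% with TMM and 38.1% with library size alone. Members called lower numbered 1, Ndufa12, with no filter and without Mttp_KO_CM replicate 1, so 0 to 1 leaving out 1 library. Same-numbered libraries showed little shared deviation (correlations 0.02, 0.00, -0.01 and 0.07, against -0.04 to 0.03 between libraries of different number). So few pairs cannot show whether the numbers mark a shared preparation, and the main fit did not pair them. With a replicate block 23 members were called, beside 20 in the same 8 libraries without it. Depth limits the genes of few counts: Ndufb2, Sdhaf1 and Sdhaf3 had SE of 0.14, 0.19 and 0.13.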
